A study of Saccharomyces cerevisiae with 24 samples.

Results

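Peaks deep inside coding sequence were taken from 12 FAIRE peak lists of budding yeast. FAIRE recovers fragments of fixed, sheared chromatin that stay in the aqueous phase of a phenol extraction, so that DNA carrying little protein is enriched. A peak was a member when its summit lay more than 300 bp downstream of the start codon inside a nuclear protein-coding gene and in the first 300 bp of no other gene. Summits within 20 kb of a chromosome end were left out, as were genes whose systematic name has a hyphen and letter suffix. In all, 32025 of the 63873 peaks were members, and 59659 peaks lay in the nuclear zone more than 20 kb from the ends, on which the comparisons below rest. The rule used positions only, so signal, width and recurrence were free to differ.

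The material came from giant colonies of strain BY4742, grown for 3 days at 28 °C on a medium with glycerol and ethanol as main carbon sources. BY4742 is a laboratory strain known to carry deletions of LEU2, LYS2 and URA3 and a partial deletion of HIS3, and all samples shared this background and the same growth. The groups differed in the biomass put into the assay, 4 mg, 20 mg, 100 mg or 500 mg, with 3 biological replicates each, and each FAIRE library was set against its own input library of unfixed DNA. A spatula was used to lift the cells, and the labels do not say whether replicates came from separate plates. Every peak list thus came from 1 FAIRE and 1 input library, and the text calls it a library.

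In yeast the best known FAIRE signal lies upstream of genes, where regulatory DNA is kept free of nucleosomes, while most coding sequence is packed in regularly spaced nucleosomes. Coding sequence of heavily transcribed genes is known to hold fewer or less stable nucleosomes. The end of a gene can also be the promoter of the next one, because yeast genes lie close together.

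The lists held between 4180 and 6439 peaks. Reads per bp recovered indirectly from the deposited values were 0.250 in 9 libraries and between 0.236 and 0.239 in 4 mg replicates 2 and 3 and 100 mg replicate 1. Of the genes deleted wholly or in part in the strain, LYS2, LEU2 and URA3 held no member summit in any library. HIS3 held 1 in each of 5 libraries, described below, and ACT1, the actin gene, at least 1 in all 12. Of all eligible genes 40.7% also held none, so the absence of summits cannot by itself show a deletion.

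Deep coding sequence held more than 1 in 2 of all summits but a smaller share of the strongest. It made up 57.8% of the zone (6608 kb) and 53.4% ± 2.69 of summits (SD, n = 12 libraries), between 50.1% and 58.4%. That is 0.404 ± 0.0729 summits per kb. The first 300 coding bp held 0.694 ± 0.0874 per kb, and upstream noncoding sequence, no more than 500 bp before a start codon, held 0.389 ± 0.0538. Other noncoding sequence held 0.343 ± 0.0325. Of deep coding sequence 17.2% ± 3.25 lay under a peak, against 26.2% ± 4.04 of the first 300 coding bp and 17.8% ± 2.04 of upstream noncoding sequence. Among the 500 peaks of a library with the highest deposited −log10 p, members were 24.95% ± 6.31 (16.6% to 39.0%) and upstream noncoding summits 40.1% ± 7.27. Put the other way, 4.84% ± 1.80 of members were among those 500, against 7.68% ± 2.31 of summits in the first 300 coding bp and 29.0% ± 5.35 of upstream noncoding summits. Ranked by −log10 p in 10 bins, members were 61.7% ± 5.58 of the weakest bin, 63.2% ± 4.43 of the next and 25.1% ± 6.71 of the strongest.

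The number and the share of members differed between biomasses, and 20 mg stood highest. The 4 mg libraries held 2442, 2143 and 2439 members, the 20 mg libraries 3314, 3596 and 3208, the 100 mg libraries 1964, 2394 and 2745, and the 500 mg libraries 2533, 2585 and 2662. The 20 mg values overlapped with no other biomass, whereas 100 mg spanned the values of 4 mg and 500 mg. Biomass accounted for 82.2% of the variance in number (exact permutation test over 369600 assignments, p = 0.00792, adjusted p = 0.0158 over 4 tests). All summits of the zone were likewise most numerous at 20 mg, with a mean of 5934 per library. Their mean was 4549 at 4 mg, 4653 at 100 mg and 4750 at 500 mg, so the higher number at 20 mg is not particular to members.

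As a share of summits, members were 51.6%, 50.3% and 52.4% at 4 mg, 57.1%, 58.4% and 54.96% at 20 mg, 50.1%, 51.1% and 51.3% at 100 mg, then 54.3%, 54.8% and 54.7% at 500 mg. The 3 libraries at 500 mg lay above all 6 at 4 mg and 100 mg and below all 3 at 20 mg. Biomass accounted for 88.6% of the variance in share (exact permutation test, p = 0.000519, adjusted p = 0.00208). Set against 500 mg, the mean share differed by −3.16 percentage points at 4 mg, 2.21 points at 20 mg and −3.77 points at 100 mg. Each of these had p = 0.1 in an exact test of 3 against 3 libraries, the smallest that test can give. Leaving out 1 library at a time, the 20 mg difference ran from 1.43 points (without 20 mg replicate 2) to 3.13 points (without 20 mg replicate 3). It was 1.14 points at −log10 q of 5 or more (exact permutation test, p = 0.4). When each library was reduced to its 3000 strongest peaks, neither the number (exact permutation test, p = 0.144) nor the share (p = 0.134) passed, so the calls hold for the lists at their own lengths.

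The remaining measures did not pass. In order of rising biomass, members among the 500 strongest were 23.3% ± 5.26, 28.6% ± 2.78, 26.8% ± 11.3 and 21.1% ± 1.90 (SD, n = 3 each; exact permutation test, p = 0.520). Recurrence was the percent of a library's members whose summit lay under a peak of a replicate, averaged over the remaining libraries of its biomass. By rising biomass it was 82.4% ± 7.88, 86.7% ± 2.62, 76.9% ± 11.05 and 94.6% ± 2.01 (SD, n = 3 each; exact permutation test, p = 0.0775, adjusted p = 0.103). All 3 libraries at 500 mg, with 97.0%, 93.3% and 93.7%, lay above the other 9, of which the lowest was 100 mg replicate 3 with 65.5% and the highest 4 mg replicate 2 with 91.5%. This result depended on 4 mg replicate 2: without it biomass accounted for 63.8% of the variance (adjusted p = 0.0461, exact permutation test). It also passed among the 3000 strongest peaks (92.6%, exact permutation test, adjusted p = 0.00208) and at −log10 q of 5 or more (69.1%, adjusted p = 0.0290).

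**Figure D1:**
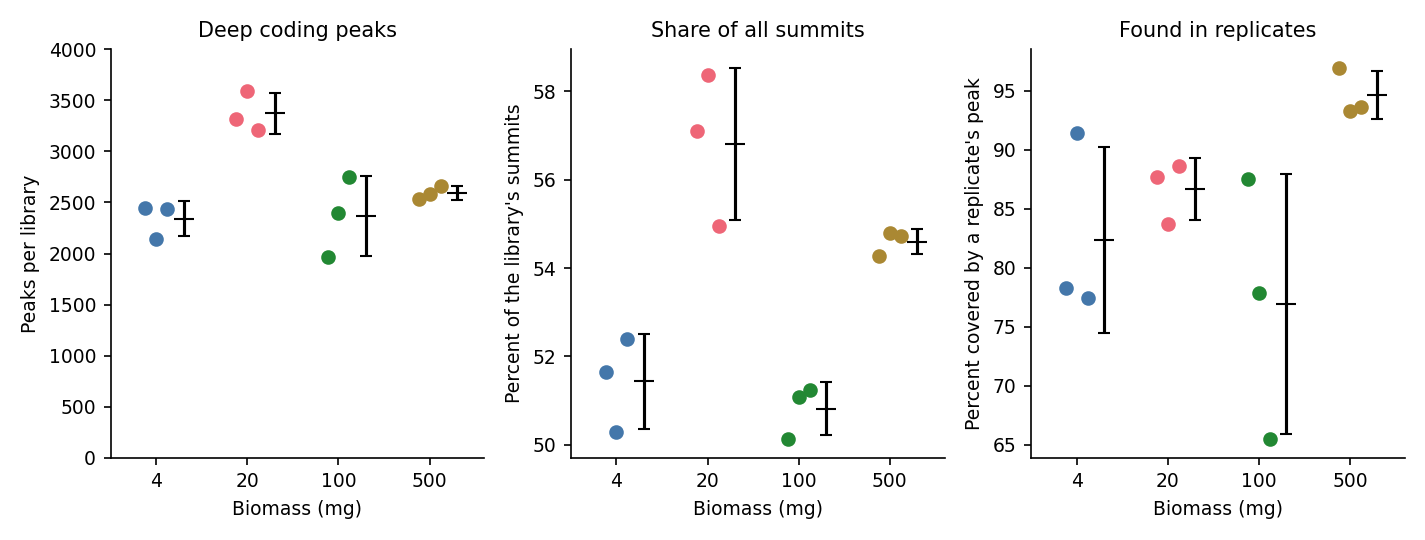
Members per library (left), their share of the library's summits in percent (middle) and the percent of members whose summit lay under a replicate's peak (right), by biomass in mg. Points are libraries, and black bars are the mean and SD of 3. The 20 mg libraries stand highest in the left and middle panels and the 500 mg libraries highest in the right one, and the middle and right axes do not start at 0.

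Member peaks were weaker than other peaks of the same library. The fold enrichment, in which the authors' peak caller divides FAIRE by input signal at the summit, was tested within lists only. For 4 mg its median over members was 2.04, 2.103 and 2.61, for 20 mg 2.19, 2.104 and 2.31, for 100 mg 1.88, 2.19 and 1.81, and for 500 mg 2.83, 3.00 and 3.00. Over all other peaks it was 2.15, 2.35 and 3.06, 2.33, 2.24 and 2.52, 1.90, 2.37 and 1.98, and 3.18, 3.46 and 3.36 in the same order. Members were lower in 12 of 12 libraries, by 0.237 ± 0.139 on average (exact sign-flip permutation test, two-sided, p = 0.000488, the smallest these flips allow; adjusted p = 0.00122 over 5 contrasts). The smallest difference, 0.0247, was in 100 mg replicate 1.

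The FAIRE signal of members was lower as well, while the input level showed no shared direction over all peaks. The FAIRE pileup is the signal of extended reads over the summit, as recovered from fold and p. In 4 mg replicates 2 and 3 and 100 mg replicate 1 it was mostly not a whole number, so there it is no plain count of reads. It had a median per library of 115 ± 23.9 over members and 130 ± 28.9 over other peaks (mean and SD of 12 medians). Members were lower in 12 of 12 libraries (by 15.1 ± 5.53; exact permutation test, adjusted p = 0.00122). The input level recovered in the same way was 47.2 ± 5.59 at members and 47.6 ± 6.68 at other peaks. Its difference was above 0 in 4 libraries, below 0 in 4 and 0 in the other 4 (mean −0.348; exact permutation test, adjusted p = 0.438). Without 100 mg replicate 1 the mean was −0.0564, and among the 3000 strongest peaks it was 0.495, higher for members (exact permutation test, adjusted p = 0.0195). Against summits in the first 300 coding bp alone, members were lower by 0.110 in fold, and against upstream noncoding summits by 0.504 (both exact permutation test, p = 0.000488).

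Widths and recurrence differed in ways that changed with peak strength. The median member peak was 291 ± 25.8 bp wide and the median other peak 318 ± 24.05 bp, and members were narrower in 11 of 12 libraries, by 26.2 ± 22.3 bp (exact permutation test, adjusted p = 0.00163). Compared within 10 bins of −log10 p, an alternative chosen after seeing the data, members were wider in 12 of 12 libraries, by 44.4 ± 11.2 bp (exact permutation test, p = 0.000488). Members recurred in replicates at 85.2% ± 9.01, against 88.6% ± 7.35 of other peaks (lower in 11 of 12 libraries, by 3.47 ± 3.43 points; exact permutation test, adjusted p = 0.00916). Within the bins this difference was 0.192 ± 3.18 points (exact permutation test, p = 0.835). In the weakest bin 64.03% of members and 64.3% of other peaks recurred, and in the strongest 98.2% and 99.1%.

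**Figure D2:**
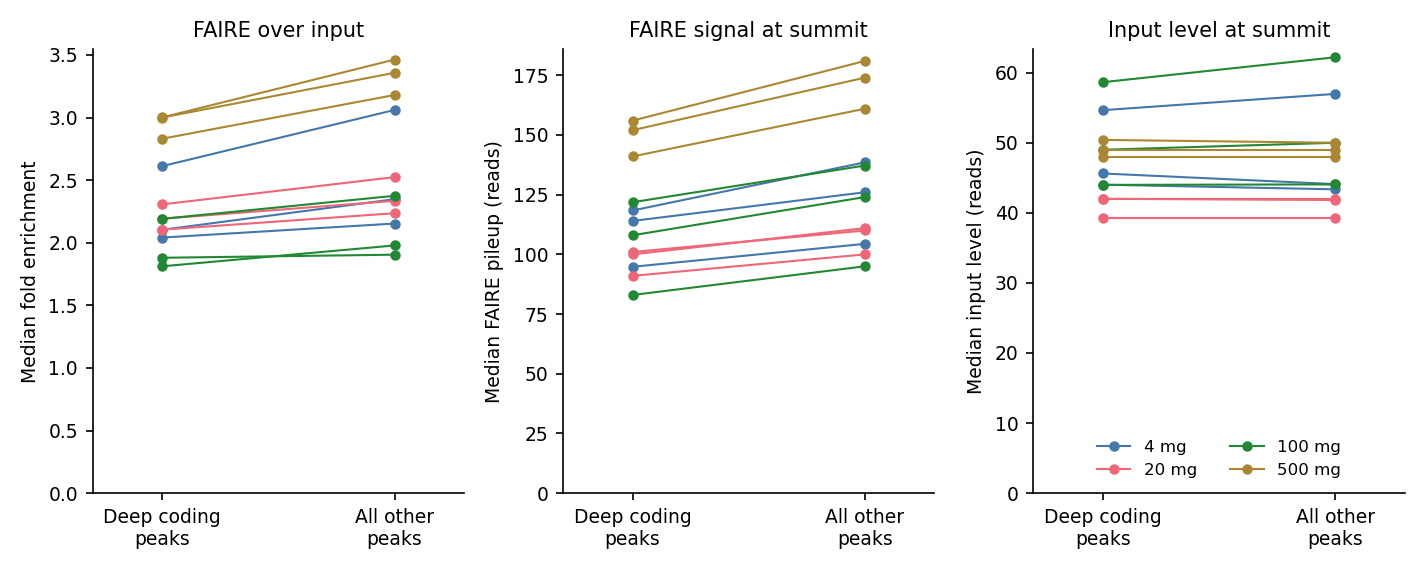
Median fold enrichment (left), median FAIRE pileup in reads (middle) and median input level in reads (right) of deep coding peaks and of all other peaks. Each line is 1 library, coloured by biomass. Pileups of 4 mg replicates 2 and 3 and 100 mg replicate 1 were mostly not whole numbers and so are no plain counts of reads. All 12 lines rise to the other peaks in the left and middle panels, by 0.237 and 15.1 on average, and the lines in the right panel do not share a direction.

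Members lay mostly well inside genes: 83.2% of their peaks (26654 of 32025) held no noncoding base, and 24.04% reached the first 300 bp of a gene with their flank. Introns were counted as coding here. By rising biomass, peaks without a noncoding base were 83.3% ± 2.74, 85.2% ± 1.84, 84.4% ± 2.72 and 79.4% ± 0.537 of members. At the 300 bp limit of the rule nothing changed abruptly. In the 50 bp just inside the limit there were 157 ± 27.1 summits per library with a median fold of 2.45 ± 0.478, and in the 50 bp just outside 184.8 ± 23.1 with 2.46 ± 0.537.

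Summits thinned out with distance from the start codon and gathered near, but not at, the stop codon. Density was 0.539 ± 0.0827 per kb from the limit to 600 bp, 0.444 ± 0.0696 at 601 to 900 bp, 0.392 ± 0.0842 at 901 to 1200 bp, 0.398 ± 0.0689 at 1201 to 1500 bp, 0.341 ± 0.0683 at 1501 to 2000 bp and 0.244 ± 0.0656 beyond 3000 bp. Counted back from the stop codon it was 0.330 ± 0.0566 in the last 100 bp, 0.735 ± 0.104 from 101 to 200 bp, 0.618 ± 0.0945 from 201 to 300 bp and 0.241 ± 0.0527 beyond 2000 bp. The last 100 bp were thus sparse in summits, yet 9.88% ± 2.27 of those they held were among the 500 strongest of their library, against 3.55% ± 1.69 at 1001 to 2000 bp. Taking the last 200 bp together, density was higher than beyond 500 bp from the stop codon by 0.195 ± 0.0247 per kb in 12 of 12 libraries, and median fold by 0.132 ± 0.0557 in 12 of 12 (both exact permutation test, adjusted p = 0.000651 over 4 tests). Bins far from either codon lie only in long genes, which were also sparser in their interior, as given below. Distance and gene length were not separated in these values.

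Part of the rise near the stop codon lay upstream of a neighbouring gene. The start codon of another gene followed within 500 bp for 2270 members (7.09%), on 4.37% of the deep sequence. Density there was 0.655 ± 0.0752 per kb, against 0.392 ± 0.0730 elsewhere, a difference of 0.263 ± 0.0255 with the same sign in 12 of 12 libraries (exact permutation test, adjusted p = 0.000651). Median fold was 2.48 ± 0.523 near another start codon and 2.33 ± 0.412 elsewhere, higher in 11 of 12 libraries by 0.149 ± 0.123 (exact permutation test, adjusted p = 0.00146). The rise towards the stop codon was also present where no start codon was near: there density was 0.277 ± 0.0540 in the last 100 bp, 0.698 ± 0.104 from 101 to 200 bp and 0.394 ± 0.0767 from 501 to 1000 bp.

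**Figure D3:**
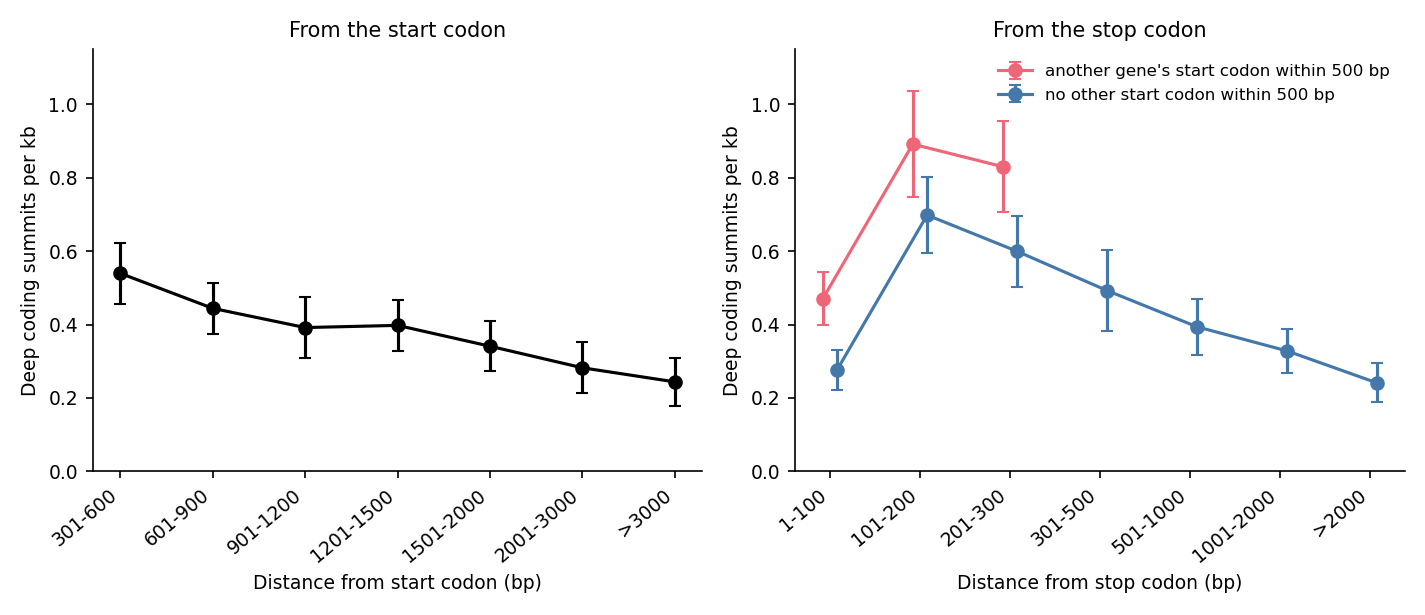
Deep coding summits per kb by distance from the start codon (left) and from the stop codon (right), in bp, as mean and SD of 12 libraries. Density is 0.539 in the bin nearest the start codon and 0.244 in the farthest, with 0.392 and then 0.398 in neighbouring bins between, and it peaks 101 to 200 bp before the stop codon, both where another gene's start codon lies within 500 bp (red) and where none does (blue).

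Longer genes held fewer summits for their length. Density was 0.692 ± 0.0996 per kb in genes of up to 600 bp, 0.489 ± 0.0842 in genes of 1201 to 1800 bp and 0.207 ± 0.0536 in genes over 3600 bp. The same order was seen in the interior alone, more than 500 bp from both ends of the gene, where density was 0.460 ± 0.0820 in genes of 1001 to 1800 bp, 0.354 ± 0.0709 in genes of 1801 to 2400 bp, 0.276 ± 0.0606 in genes of 2401 to 3600 bp and 0.178 ± 0.0481 in longer ones.

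To ask whether the same places recurred, summits of all libraries that lay within 50 bp of their neighbour were chained into sites, and a library was counted as covering a site when 1 of its peaks spanned the median summit. The 6241 member sites spanned a median of 30 bp from the first to the last summit. Of these, 1994 (32.0%) were covered in all 12 libraries, and 557 (8.92%) in 1 only. Covered in 1 only were 7.03% of sites in the first 300 coding bp, 8.36% in upstream noncoding and 4.24% in other noncoding sequence. Over all 11064 sites the share covered in all 12 was 34.9%, and it was 41.4% of the 2305 sites in the first 300 coding bp and 47.3% of the 1244 in upstream noncoding sequence. In other noncoding sequence it was 25.3% of 1274 sites, below the share of member sites. With a summit in place of coverage the count of 1994 was 611, and at −log10 q of 5 or more it was 1250. Shares over all sites are not given for these settings. Neighbouring member sites of 1 gene lay a median of 354 bp apart (3142 pairs), and 221.5 bp apart among sites covered in all 12 libraries (704 pairs).

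The 10 strongest member sites, ranked by median fold among the 1004 covered in all 12 libraries with a summit in at least 9, were led by a site in YBR219C, a gene of unknown function. It lay on chromosome II at 662685 (R64, 1-based), 436 bp upstream of the start codon of PYC2, which encodes pyruvate carboxylase. Its distance of 619 bp into this gene of 805 bp is less certain, as that length is no multiple of 3. For 4 mg its fold enrichment was 2.97, 4.12 and 5.15, for 20 mg 2.04, 2.45 and 4.20, for 100 mg 1.88, 3.25 and 1.84, and for 500 mg 4.37, 5.06 and 4.67, with a median of 3.68. At all 10 sites 100 mg replicates 1 and 3 lay below the median of the 12 libraries and the 500 mg libraries above it. The same libraries had the lowest and the highest median fold over all members and over all other peaks. The order is thus not particular to these sites.

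Another 2 of the 10 also preceded a metabolic gene closely. A site in YHR173C (chromosome VIII, 450837) lay 23 bp before its stop codon and 490 bp upstream of ENO2, the enolase gene, with a median fold of 3.35 (2.80 to 5.05). A site in TAG1 (chromosome XII, 504209) lay 39 bp before the stop codon and 382 bp upstream of IDP2, the gene of cytosolic isocitrate dehydrogenase, with 3.24 (1.94 to 4.41). These 3 sites thus lay inside 1 gene and in the 500 bp upstream of another.

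The other 7 had no start codon within 500 bp downstream. PEX21, encoding a peroxisomal import factor, held a site at 969568 on chromosome VII with a fold enrichment of 2.94, 2.95 and 3.96 for 4 mg, 3.22, 3.35 and 3.53 for 20 mg, 2.87, 3.72 and 2.06 for 100 mg, 4.65, 4.05 and 4.33 for 500 mg, and a median of 3.44. PMU1, a gene of the phosphomutase family, held one 23 bp before its stop codon (chromosome XI, 200906; 3.39, range 1.74 to 4.83). TKL2, encoding transketolase of the pentose phosphate pathway, had 3.25 (chromosome II, 476061; 1.96 to 4.58), 377 bp into a gene of 2046 bp. The sites thus lay near the 3′ end in some genes and near the start in others.

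MSO1, encoding a secretion factor, had 3.19 (chromosome XIV, 713142), AZF1, encoding a zinc finger transcription factor, 3.16 (chromosome XV, 534481), and MSB1, of cell polarity, 3.16 (chromosome XV, 688950). PAH1, encoding phosphatidate phosphatase, had 3.15 (chromosome XIII, 592320), with its site 309 bp from the start codon and so only just inside the rule. Of the 50 strongest sites 17 (34.0%) lay within 200 bp of the stop codon and 6 before another start codon, against 203 (20.2%) and 80 of the 1004.

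**Figure D4:**
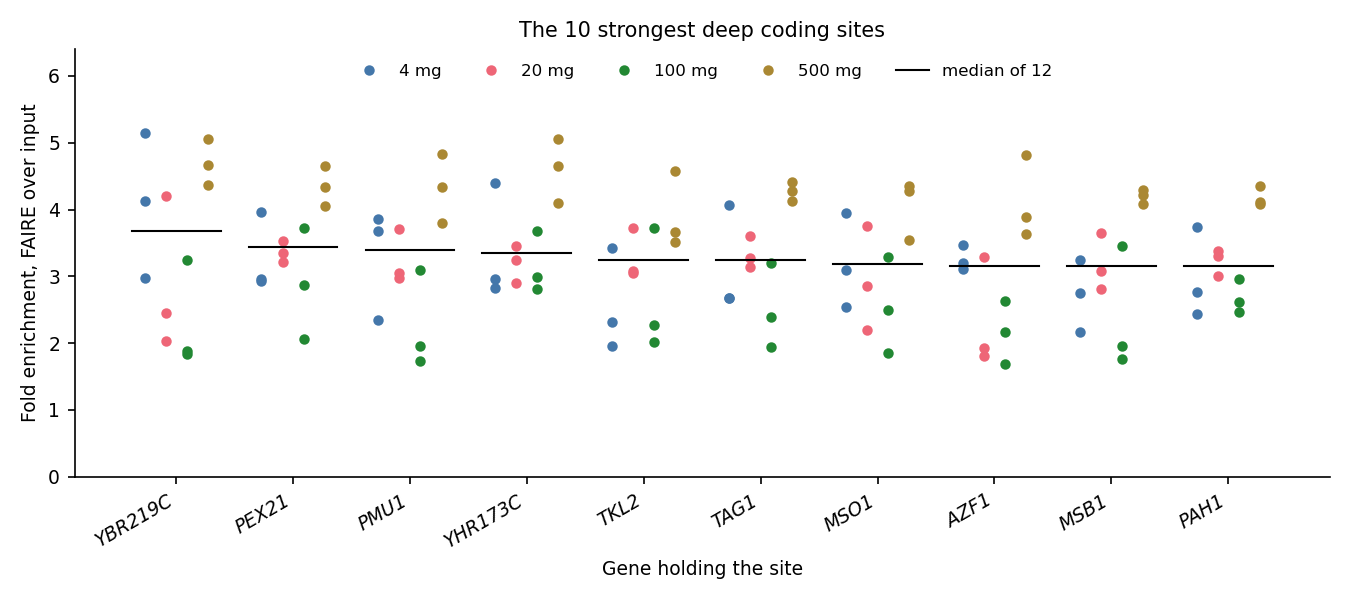
Fold enrichment at the 10 strongest deep coding sites, by the gene that holds each site. Points are the 12 libraries, grouped and coloured by biomass, and the line is their median, which runs from 3.15 to 3.68. At all 10 sites the 3 points of 500 mg lie above the line and those of 100 mg replicates 1 and 3 below it, while 100 mg replicate 2 lies on either side. The same libraries also have the highest and the lowest median fold over all members and over all other peaks.

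By gene, members were spread unevenly. Of 5349 genes with eligible deep sequence, 935 (17.5%) held a member summit in all 12 libraries and 2178 (40.7%) in none. The groups below are described by such counts and by density, beside the same over all eligible genes (0.404 per kb; median of the gene medians of fold, 2.25), and none was tested against the rest. The fold given for a gene is the median, over the libraries with a member summit there, of its highest member fold. A gene with more summits has more values to take the highest from, so gene folds are not evenly comparable. Peaks in genes with a near-identical copy are uncertain, since reads could be placed on either copy, and such genes are named as they come up.

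Genes of central carbon metabolism were dense in members. Of 20 eligible genes of glycolysis and fermentation 12 held one in all 12 libraries and none was without, at 0.983 ± 0.129 per kb (0.780 to 1.26). PDC6, a minor pyruvate decarboxylase gene, had 1 summit in every library and a median fold of 2.98 over the 12 libraries. TDH2, of glyceraldehyde-3-phosphate dehydrogenase, had 2.93 and ENO2 2.86, both with close copies. The fewest libraries were found for PDC1 and PDC5, the major pyruvate decarboxylase genes, near-identical to each other, with 5 and 6.

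Genes of gluconeogenesis, of the glyoxylate cycle and of growth on ethanol and glycerol, the carbon sources of these colonies, were found in all libraries in 12 of 21 cases, with none without, at 0.911 ± 0.0913 per kb. PYC2 and PYC1, the pyruvate carboxylase pair, had a median of 3 summits per library each. The median of their highest fold per library was 3.06 and 2.90, and that of ALD5, a mitochondrial aldehyde dehydrogenase gene, was 2.92. IDP2 held a member summit in the 20 mg libraries alone (2.07, 2.24 and 1.91), and GUT2, of glycerol-3-phosphate dehydrogenase, in 4 libraries. TCA cycle genes were less uniform, with 3 of 17 in all libraries (17.6%), 4 in none (23.5%) and 0.632 ± 0.194 per kb. The share in all libraries was near the 17.5% of all eligible genes. Genes of 1201 to 1800 bp had 23.2% in all libraries, 32.5% in none and 0.489 ± 0.0842 per kb. The median lengths of these groups and of glycolysis genes lie in that class. IDH1, of isocitrate dehydrogenase, had 2.82, KGD2, of 2-oxoglutarate dehydrogenase, 2.52 and LSC2, of succinyl-CoA ligase, 2.50. CIT1, of citrate synthase, and LSC1, the partner subunit of LSC2, held none in any library.

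Heat shock proteins and chaperones had 10 of 22 genes in all libraries, 1 in none and 0.800 ± 0.133 per kb. HSP60, the mitochondrial chaperonin gene, had a highest member fold of 2.54, 2.55 and 3.43 in the 4 mg libraries, 3.29, 2.37 and 3.41 in the 20 mg, 1.91, 2.80 and 2.33 in the 100 mg and 4.22, 4.20 and 3.78 in the 500 mg libraries. SSA2, a cytosolic chaperone gene with close copies, had a median of 2.95 and MDJ1, a mitochondrial co-chaperone gene, 2.71. The near-identical pair HSC82 and HSP82, encoding a chaperone of kinases and receptors, was at the other end, with 0 and 2 libraries.

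Translation factors had 10 of 26 genes in all libraries, 7 in none and 0.642 ± 0.0510 per kb. RPG1, of a translation initiation complex, had 1 summit in every library and a median fold of 2.79. EFT2 and EFT1, which encode the same elongation factor and cannot be told apart by most reads, had 2.77 and 2.71. TIF4632 and NIP1, of 2 initiation factor complexes, had none. Ribosomal protein genes, most of which have a close copy, had 15 of 117 in all libraries, 52 in none and 0.718 ± 0.121 per kb on a median length of 815 bp. Genes of 601 to 900 bp, the class of that length, had 0.670 ± 0.0835 per kb. RPL2B had 2.98, RPS14B 2.95 and RPS14A 2.83, while RPS13 and RPS16A had none. The lengths of RPL2B (1165 bp) and RPS14A (721 bp) are no multiple of 3, so positions within their coding sequence are less certain.

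Cell surface genes were dense as well. Mucins and repeat-rich cell wall proteins had 16 of 26 genes in all libraries, 1 in none, 0.893 ± 0.109 per kb and a median gene fold of 2.59. None of these genes is on the near-identical list, which did not cover repeats inside a gene. Summits in such repeats are less certain, since the handling of multiply mapped reads is not stated. TIR2 and TIR3, of cell wall mannoproteins, had 1 summit in every library and a median fold of 2.98 and 2.81, and HKR1, a mucin-like osmosensor gene, had a median of 4 summits per library. SPI1 and CCW12, whose deep sequence is only 147 and 102 bp, had 0 and 1 library. Plasma membrane pumps and transporters had 16 of 33 in all, 3 in none and 0.655 ± 0.0900 per kb. GAP1, the general amino acid permease gene, had 2.95, MEP1, an ammonium permease gene, 2.94 and GNP1, a glutamine permease gene, 2.83. YOR1, a drug pump gene, and OPT2, an oligopeptide transporter gene, had none.

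On the ammonium export and colony development list 2 of 9 genes had a member in all libraries and 1 in none, at 0.543 ± 0.179 per kb on a median length of 852 bp, below the 0.670 of genes of 601 to 900 bp. SOD2, of mitochondrial superoxide dismutase, had 2.83 and MSN2, of a stress transcription factor, 1.98. SOD1 had none and ATO2, associated with ammonium export, had 1 summit in each of 2 libraries.

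Fatty acid and sterol synthesis genes were near the value of all genes, and large RNA polymerase subunits were below it. Fatty acid and sterol synthesis had 4 of 23 genes in all libraries, 5 in none and 0.464 ± 0.150 per kb. HMG1 and HMG2, the pair of HMG-CoA reductase genes, had 2.81 and 2.68, and FAS2, of fatty acid synthase, had a median of 4 summits per library and 2.70, whereas ERG5 and ERG24, of sterol synthesis, had none. Histone genes offered only 1.61 kb of deep sequence, and 10 of 11 held no member, CSE4 and HHT1 among them. Their density of 0.518 ± 0.242 per kb and median gene fold of 3.20 rest on the remaining gene. Large RNA polymerase subunits had 1 of 10 in all libraries, 1 in none and 0.257 ± 0.112 per kb. Genes of 2401 to 3600 bp, the class of their median length of 3531 bp, had 0.316 ± 0.0666. RPO21, the largest subunit of RNA polymerase II, had 2.44. RPC40 was found in 2 libraries and RPA190, the largest subunit of RNA polymerase I, in none.

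Meiosis genes, nuclear pore genes and genes of giant proteins were sparse in summits per kb. Of 43 genes of meiosis and sporulation, which vegetative haploid cells are known to keep silent, 2 held a member in all libraries and 32 (74.4%) in none, against 40.7% of all genes. Their density was 0.156 ± 0.0447 per kb, and genes of 1201 to 1800 bp, the class of their median length of 1470 bp, had 0.489 ± 0.0842. The 2 were NDT80, a meiotic transcription factor gene (2.66), and SMK1, a sporulation kinase gene (2.48). SPO22 and MSH5, both of meiotic recombination, were the longest with none.

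Nuclear pore genes had 6 of 31 in all libraries (19.4%) and 13 in none (41.9%), near the 17.5% and 40.7% of all eligible genes. Their density was 0.185 ± 0.0259 per kb. Genes of 2401 to 3600 bp, the class of their median length, had 25.6% in all libraries, 27.9% in none and 0.316 ± 0.0666 per kb. NUP1 had 2.89, NUP57 2.83 and NUP116 2.65, while MLP1 and MLP2, of the nuclear basket, had none. The giant kinase-like and HEAT repeat proteins had 3 of 17 in all libraries (17.6%), 8 in none (47.1%) and 0.118 ± 0.0685 per kb. All genes over 3600 bp had 24.8% in all libraries, 22.1% in none and 0.207 ± 0.0536 per kb. GCN1, of amino acid starvation sensing, had 2.88, TOR2 2.63 and TOR1 2.35, the last pair encoding growth-controlling kinases. UTP20 and UTP10, of ribosome assembly, had none.

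**Figure D5:**
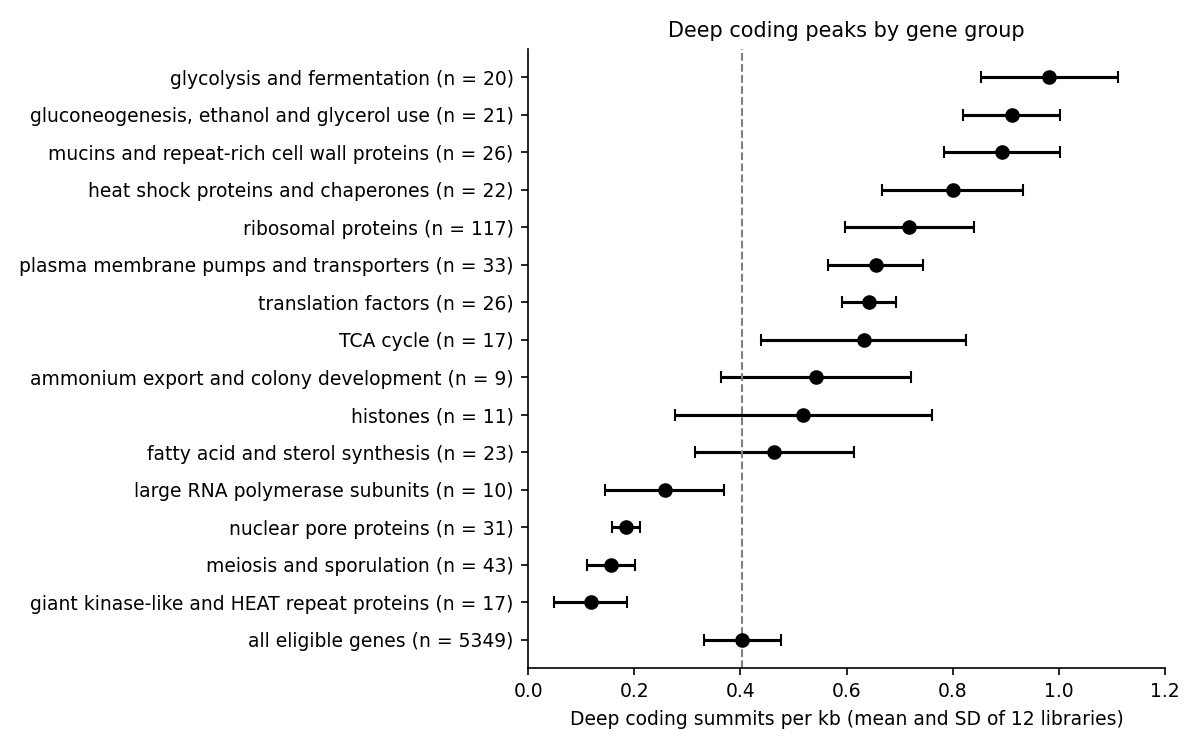
Deep coding summits per kb of eligible sequence by gene group, as mean and SD of 12 libraries, with the number of eligible genes. The dashed line and the lowest row are all 5349 eligible genes (0.404). Glycolysis stands highest (0.983) and the giant kinase-like and HEAT repeat proteins lowest (0.118).

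At each biomass glycolysis genes were denser in members, and meiosis genes sparser, than all genes. Glycolysis and fermentation genes had 1.01 ± 0.125, 1.05 ± 0.180, 0.997 ± 0.0867 and 0.867 ± 0.0751 summits per kb in order of rising biomass (SD, n = 3 each). Meiosis genes had 0.116 ± 0.0281, 0.208 ± 0.0281, 0.129 ± 0.0318 and 0.171 ± 0.0212, and all eligible genes 0.354 ± 0.0260, 0.510 ± 0.0303, 0.358 ± 0.0593 and 0.392 ± 0.00966 in the same order. The lowest glycolysis value of any library, 0.780, lay above the highest meiosis value, 0.239. Densities of both groups were not tested between biomasses.

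Single genes ranged from several summits to none along many kb. FLO1, a flocculin gene with close copies in other FLO genes, held the most, with a median of 5 per library (2 to 6). STT4, of phosphatidylinositol 4-kinase, had 4.5, with 5 in each 500 mg and each 20 mg library but 1 in 4 mg replicate 2 and in 100 mg replicate 1. DUR12, of urea amidolyase, ADE6, of purine synthesis, and FLO9 had 4 each. At the other end FMP27 (7887 bp), UTP20 (7482 bp), LAA1 (6045 bp), MLP1 (5628 bp) and UTP10 (5310 bp) were the longest genes without a member summit in any library.

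Few member sites separated a low biomass from 500 mg, except at 20 mg. Covered in all 3 libraries at 20 mg and none at 500 mg were 573 member sites (9.18%), and the reverse held for 6 (0.0961%). Over all sites the shares were 8.39% and 0.307%, so the members' share was near that of all sites in the first direction and below it in the reverse. The mean 20 mg fold of the 573 had a median of 1.95, against 2.58 for member sites covered in all 12 libraries. Of the 573, 317 were covered in no 4 mg library, 177 in no 100 mg library and 132 in neither. With a summit in place of coverage the 573 became 294, and at −log10 q of 5 or more 280, with no share over all sites given for these settings.

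For 4 mg the counts were 22 covered at 4 mg and not at 500 mg (0.353%, against 0.578% of all sites) and 112 the other way (1.79%, against 1.41%). For 100 mg they were 35 (0.561%, against 0.841%) and 192 (3.08%, against 2.40%). With 1 library left out, fewer had to be covered or uncovered, and the counts moved. Without 4 mg replicate 2 or 3 the 22 became 66 or 55, without 4 mg replicate 1 or 3 the 112 became 173 or 326, and without 20 mg replicate 1, 2 or 3 the 6 became 22, 18 or 120. Without 100 mg replicate 1 or 2 or 500 mg replicate 2 the 35 became 91, 120 or 53, and without 100 mg replicate 2 or 3 the 192 became 427 or 309.

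Of the 6 sites covered at 500 mg and not at 20 mg, the one with the highest mean fold was in HIS3, of histidine synthesis, 563 bp into the gene and 403 bp upstream of the start codon of DED1, a helicase gene (chromosome XV, 722508). Its fold was 2.23 and 2.44 in 4 mg replicates 2 and 3 and 2.58, 2.58 and 2.74 at 500 mg, and it was covered in no 20 mg or 100 mg library. Such sites were chosen for this pattern, so their values are a description. CLN2, a G1 cyclin gene, held a site 128 bp before its stop codon with 2.19, 2.43 and 2.38 at 500 mg, covered at 4 mg in replicates 2 and 3 alone (2.14 and 2.04). Sites chosen for coverage in all 4 mg libraries and no 500 mg library included those in HMT1 and CRZ1. HMT1, of arginine methylation, had 2.03, 2.095 and 2.02 at 4 mg and 2.29, 2.29 and 2.00 at 20 mg. CRZ1, of a calcium-responsive transcription factor, had 1.49, 2.27 and 2.21 at 4 mg and was covered at 20 mg in replicate 3 alone (1.90). Both sites were also covered in 100 mg replicates 2 and 3.

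Several of the highest separating values came from peaks whose own summit lay elsewhere. ALB1, of ribosome assembly, had a site 34 bp before its stop codon with 3.66, 4.49 and 3.799 at 500 mg and no coverage at 100 mg, but only 2 libraries had a summit there. At 20 mg the site with the highest mean, in GCN1 (2.81, 2.56 and 3.63), had a summit in 1 library, although 5 libraries covered it. NUS1, of protein glycosylation, was better placed, with a summit in all 8 libraries that covered its site: 2.51, 3.57 and 4.07 at 500 mg, none at 100 mg.

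Some members are less certain by position. Genes with a near-identical copy and Ty reading frames held 1554 (4.85%), genes whose length is no multiple of 3 held 696 (2.17%), RNA genes overlapped 123 and genes with a hyphen suffix 33. Ty reading frames, of which many copies exist, held 0.160 ± 0.122 summits per kb and no frame had one in all 12 libraries.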

How the data were processed

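The authors deposited 12 MACS2 peak lists, each from 1 FAIRE and 1 input library of 24, so replicates were not pooled. Bowtie2 2.2.8, SAMtools 1.4, bedtools 2.26.0 and MACS2 2.1.1.20160309 on build R64 (sacCer3) are named per the submitters' processing notes, while the caller's settings and threshold, and how multiply mapped reads were handled, are not stated in the labels or file headers. The deposited fold enrichment is a ratio made by the authors' peak caller, as are the deposited −log10 p and −log10 q values. The deposited score is 10 times −log10 q and was not used. Start, end and summit were turned into 1-based positions.

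The FAIRE pileup and input level were computed by solving fold and −log10 p under a Poisson model and rounded to 2 decimals. Pileups came out whole within 0.02 for nearly all peaks of 9 libraries but for 3.59% to 4.57% in 4 mg replicates 2 and 3 and 100 mg replicate 1. Read totals were not analysed here. Genes came from a RefSeq table of R64 with strands from systematic names. Of 5619 genes, 5458 (97.1%) have a length that is a multiple of 3. Lengths and positions count introns where present, so intron sequence was treated as coding. No sequence is printed because no genome was used here.

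Tests were exact permutations over libraries, two-sided for contrasts, with Benjamini-Hochberg adjustment within 4 biomass tests, 5 contrasts and 4 position tests. Replicates are labelled biological; p-values measure the spread between libraries. Libraries were not paired by replicate number in the main tests. The correlation of deviations between same-numbered libraries was −0.210 to 0.0790, which shows no pairing but does not exclude that they were handled together. Scripts used Python 3.11.15, NumPy 2.4.6 and pandas 2.3.3 and were checked on simulated lists. Near-identical genes were taken from a hand-written list of 71 genes plus ribosomal protein genes, in place of the planned comparison of proteins. Named genes were the 10 strongest sites, the 5 genes with most summits, the 5 longest with none, in each gene list the 3 strongest in all libraries and the 2 in the fewest, separating sites (5 per direction, some of which are printed), and the genes deleted in the strain with ACT1. Members, lists and rules were chosen with earlier results of these data known.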

Additional observations from a re-analysis of the deposited data

Results flagged for a closer look

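The width difference between deep coding peaks and other peaks varied with biomass. Biomass accounted for 74.5% of its variance over the 12 libraries (exact permutation test, p = 0.0178, adjusted p = 0.0534 over 3 such tests), so it passed before but not after adjustment. The difference, deep coding peaks minus others, was −25.7 ± 20.6 bp, −11.3 ± 5.69 bp, −11.3 ± 14.98 bp and −56.5 ± 4.27 bp in order of rising biomass (SD, n = 3 each). The 3 differences at 500 mg, −52.5, −61 and −56 bp, lay below the other 9, of which the lowest was −45 bp. Peak strength moved with this: the median fold of deep coding peaks was 2.94 ± 0.0978 at 500 mg and between 1.96 and 2.25 in the mean of the other biomasses. Its part in the result was not tested.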

How the results depend on the processing

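Of 71 tests recomputed with all libraries under other settings, 59 kept their direction and their side of the threshold. Of 35 site counts, which have no test, 27 stayed within 1.5 times. The 84 differences of 3 against 3 libraries kept their sign, but their test cannot pass. At the 3000 strongest peaks biomass accounted for 47.7% of the variance in number (exact permutation test, adjusted p = 0.192), 46.7% in share (0.192) and 92.6% in recurrence (0.00208), the width contrast was 21.9 bp (0.0254) and the input contrast 0.495 (0.0195). At −log10 q of 5 or more, recurrence was 69.1% (0.0290), the width contrast −19.2 bp (0.0732) and the input contrast 0.0467 (0.871). Against upstream noncoding summits the input contrast was 0.457 (0.291). Within strength bins, recurrence was 0.192 points and width 44.4 bp. The cause was not tested.

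With replicate numbers as a block, number passed before but not after adjustment (82.2% of the variance, exact permutation test within numbers, p = 0.0278, adjusted p = 0.0556) and share passed (adjusted p = 0.0208). Same-numbered libraries showed no shared variation, with 0 of 18 correlations above 0.1, which does not exclude that they were handled together.

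Sites covered in all libraries numbered 611 by summits and 1250 at −log10 q of 5 or more. The same settings gave 294 and 280 for 20 mg without 500 mg, and summits gave 46 for the reverse. At −log10 q of 5 or more, 4 mg without 500 mg had 6, 100 mg without 500 mg 8, and the reverse of the last 320. Leaving out 1 library at a time, recurrence ran from 49.3% to 63.9% of variance and the strongest-500 difference from −0.567 to 4.63 points for 4 mg minus 500 mg and from −0.367 to 10.8 for 100 mg minus 500 mg, turning without 4 mg replicate 1 and without 100 mg replicate 1. Counts ran from 20 to 66 and 110 to 326 (4 mg without 500 mg and the reverse), 6 to 120 (500 mg without 20 mg), 33 to 120 and 190 to 427 (100 mg without 500 mg and the reverse). For none of these settings is the share over all sites given. A list holds only what passed its caller's threshold, so weaker signal was not seen, and read depth is known only indirectly.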
